A study of Mus musculus with 20 samples.

Results

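The genes described here are the mouse MHC class II genes and their regulator Ciita, taken by name as a fixed list of 10 of the 37620 genes in the count table: Ciita, Cd74, H2-Aa, H2-Ab1, H2-Eb1, H2-DMa, H2-DMb1, H2-DMb2, H2-Oa and H2-Ob. All 10 were found and all 10 passed the filter on low counts. RNA-seq counts were compared between B220+ cells of 3 groups of mice on the C57BL/6 background. The first group was normal spleen without a transgene in its label (n = 4), the second VavPBcl2 lymphomas that carried an empty vector (n = 8) and the third VavPBcl2 lymphomas that carried Myc (n = 8). VavPBcl2 is a transgene that drives the survival gene Bcl2 from the Vav promoter, which is active throughout the blood cell lineages, and both lymphoma groups carried it. Thus vector against normal compares a Bcl2-driven lymphoma with normal spleen, and Myc against vector compares lymphomas with and without added Myc. The cells came straight from the animal and were enriched with CD45R (B220) microbeads, with no culture. Whether the samples within a group were separate animals is not in the labels, and a p-value therefore reflects only the spread of these samples, which may be technical.

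MHC class II molecules are pairs of an alpha and a beta chain that show peptides from endocytosed proteins to helper T cells, and B cells express them until they become plasma cells. The invariant chain, encoded by Cd74, fills the groove of new class II molecules until H2-DM exchanges its remnant for peptides in the endosome, a step that H2-DO holds back in B cells. Ciita does not bind DNA by itself. It is recruited by a complex of RFX factors, CREB and NF-Y that sits on X and Y boxes just upstream of class II genes, and its own amount is taken to set their transcription.

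These boxes are shown because 5 of the 10 genes share them in the RefSeq promoter table (GRCm38.p6), and because the genes turned out to differ in how far they moved. Each stretch is 110 bases long and runs 5′ to 3′ in the direction of the gene, from 140 to 31 bases before the start of transcription. Capitals mark an X box core, searched as CNNGNAAC, and a Y box, searched as ATTGG. Both strands of 300-base windows were searched. The letters and the gap of 20 to 35 bases between the boxes were settled after these promoters had been read.
H2-Aa, chr17:34287854-34287963, minus strand: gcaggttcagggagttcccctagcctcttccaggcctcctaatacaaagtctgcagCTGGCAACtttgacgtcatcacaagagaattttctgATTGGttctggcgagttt
H2-Eb1, chr17:34305727-34305836, plus strand: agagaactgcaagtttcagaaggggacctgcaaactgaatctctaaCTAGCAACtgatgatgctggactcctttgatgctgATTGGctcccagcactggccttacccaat
H2-DMb1, chr17:34153051-34153160, plus strand: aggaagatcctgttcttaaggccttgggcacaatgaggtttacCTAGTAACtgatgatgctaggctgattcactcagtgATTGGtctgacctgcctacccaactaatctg
H2-DMb2, chr17:34145109-34145218, plus strand: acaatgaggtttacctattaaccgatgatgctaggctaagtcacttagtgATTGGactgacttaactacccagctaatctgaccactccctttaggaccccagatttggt
H2-Oa, chr17:34092239-34092348, plus strand: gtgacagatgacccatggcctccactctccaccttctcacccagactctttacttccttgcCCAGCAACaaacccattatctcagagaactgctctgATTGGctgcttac
H2-Ob, chr17:34238765-34238874, plus strand: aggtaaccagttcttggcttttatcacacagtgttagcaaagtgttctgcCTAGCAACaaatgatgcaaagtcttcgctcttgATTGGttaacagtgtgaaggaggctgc
H2-Eb2, chr17:34325535-34325644, plus strand: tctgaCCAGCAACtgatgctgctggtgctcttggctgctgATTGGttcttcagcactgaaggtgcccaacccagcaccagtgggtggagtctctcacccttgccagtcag

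The X core followed by the Y box at that distance was in the windows of H2-Aa, H2-Eb1, H2-DMb1, H2-Oa and H2-Ob, with 25 to 28 bases between the boxes. It was also in that of H2-Eb2, a further class II beta chain gene that is not among the 10. Of all 32851 promoter windows in the table, 203 (0.618%) held the pair, against 39.1% with the X core and 37.4% with the Y box alone. The window of H2-DMb2 and the windows of both listed starts of H2-DMa did not hold the pair in these letters. Promoters of Ciita, Cd74 and H2-Ab1 were not in the table. A match of letters is a description of these windows and was not tested for binding.

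Samples held 28.7 to 56.3 M (1e6) counts assigned to genes, so all 10 genes had counts far above the filter in every sample. Multi-mapped reads, which were not counted to genes, took 14.3 to 17.9% of all reads in normal samples, 15.4 to 31.3% in vector lymphomas and 22.2 to 40.3% in Myc lymphomas. H2-DMb1 and H2-DMb2 are closely related copies, and H2-Eb1 and H2-Eb2 are related too, so the split of reads within these pairs is uncertain. Run numbers in the sample descriptions put 7 samples (normal replicate 1 and vector replicates 1 to 6) in later sequencing runs and 13 in earlier runs, with no Myc lymphoma among the later ones, so run and group overlap. Titles also name sets of samples, each within 1 group, and the pair of vector lymphomas from the earlier runs (replicates 7 and 8) is a set of its own. One library stood apart. Myc replicate 5 had a median log2 level of 1884 genes with at least 8 kb of exon sequence that was 3.13 lower, relative to 1147 genes with at most 2 kb, than over all samples, whereas the other 7 Myc lymphomas lay between -0.66 and -0.06, vector lymphomas between -0.51 and 0.81 and normal samples between 0.29 and 0.99. Results that turn on it are therefore given with and without it.

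The samples carry the transcripts of B cells, but at different levels. The summed CPM (counts per 1e6 gene counts, with library sizes scaled by TMM) of 9 B cell markers ran from 5906 to 6695 in normal samples, from 5462 to 8976 in vector lymphomas and from 1702 to 5610 in Myc lymphomas. Of these 9 markers 7 fell in Myc against vector lymphomas and 3 fell in the earlier runs alone, against 21.9% and 4.4% of all genes. Cd22, a receptor that dampens signals of the B cell antigen receptor, was among those that fell (log2 fold change -2.29 ± 0.21 SE). In such bulk samples, fewer cells of a type and less RNA per cell cannot be told apart. The TMM factor of Myc replicate 5 was 0.675, against 0.913 to 1.122 in the other samples. A factor below 1 raises the CPM of a library above its counts per 1e6 unscaled gene counts.

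The class II genes made up a large and variable share of these transcriptomes. Together the 10 genes held 1.68 to 2.09% of all gene counts in normal samples, 2.07 to 3.18% in vector lymphomas and 0.428 to 1.56% in Myc lymphomas. Cd74 alone held 41.2 to 48.2% of the counts of the 10 genes, a narrow range across all 20 samples. Per kilobase of exon sequence, Cd74 was the highest of the 10 in each group (mean 4393 CPM per kb in normal, 6826 in vector and 2689 in Myc samples) and Ciita the lowest (37.0, 66.9 and 15.2). The classical chains H2-Ab1 and H2-Eb1 followed Cd74, with 976 and 957 CPM per kb in normal samples, values that overlapped between samples. H2-Ob, the beta chain of H2-DO, changed place in this order, from the 6th in normal and vector samples (142 and 185 CPM per kb) to the 9th in Myc lymphomas (43.3), or to the 8th (40.2, with H2-DMb1 at 38.5) without Myc replicate 5.

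**Figure D1:**
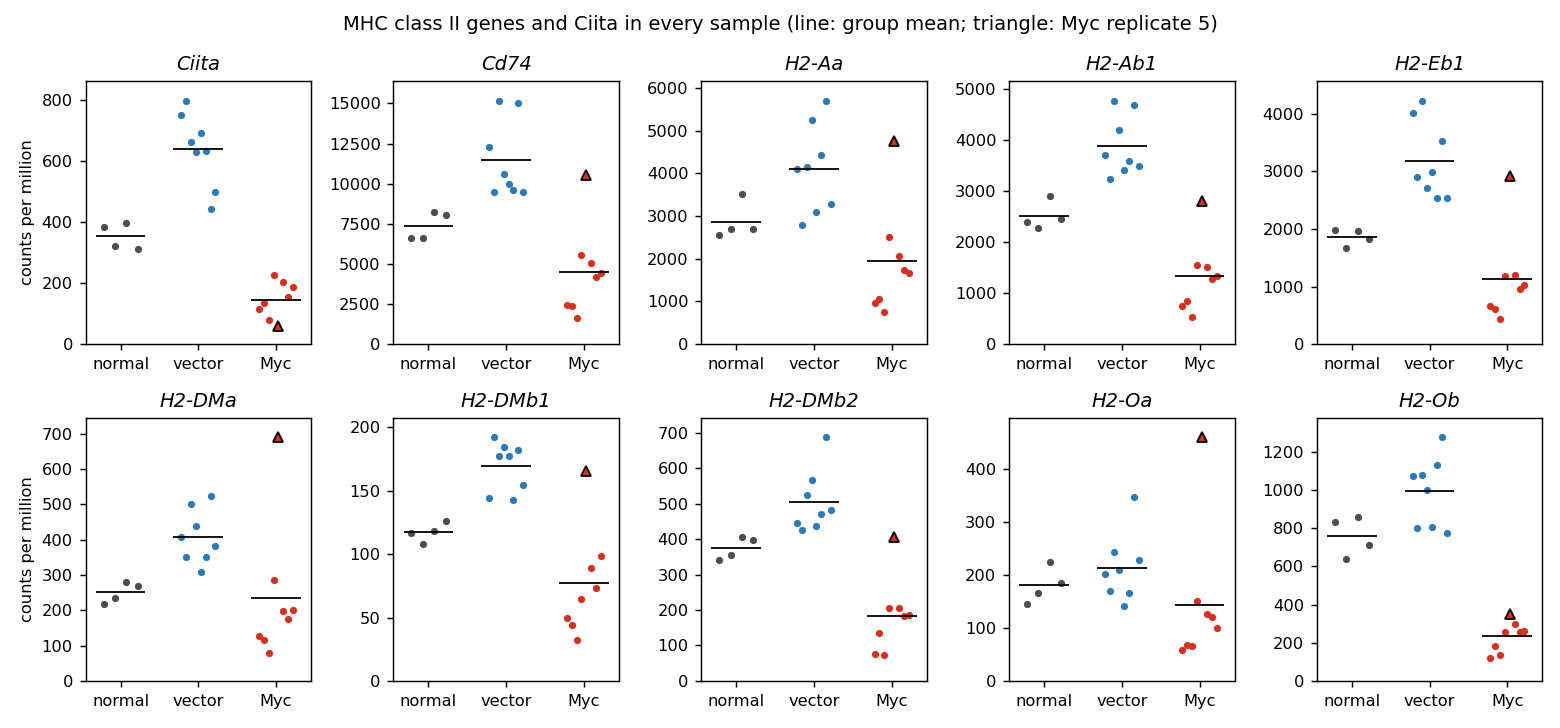
CPM (vertical axes, each from 0) of the 10 genes in normal (grey, n = 4), vector (blue, n = 8) and Myc (red, n = 8) samples, with a point per sample and a line at the group mean. The triangle is Myc replicate 5, which by CPM scaled with TMM is the lowest sample for Ciita (58.9 CPM) and the highest of the Myc group for the 9 other genes.

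In Myc against vector lymphomas 9 of the 10 genes fell at an adjusted p under 0.05 (edgeR quasi-likelihood F test, two-sided, adjusted by Benjamini-Hochberg over 17824 genes), and none rose. Among all genes tested, 21.9% fell and 26.6% rose in this comparison. The median log2 fold change of the 10 genes was -1.40, against 0.09 over all genes. In 4 of the 10 genes (Ciita, H2-Ab1, H2-DMb2 and H2-Ob) every Myc lymphoma lay below every vector lymphoma, which held for 6.38% of all genes. Without Myc replicate 5 all 10 genes fell, with a median of -1.68 and 23.3% of all genes falling.

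Ciita, the coactivator that switches class II genes on, had with H2-Ob the largest fitted falls of the 10. Its level was 383, 321, 398 and 310 CPM in normal samples. Vector lymphomas had 442 to 798 CPM (median 647). Myc lymphomas had 117, 133, 78.8, 227, 58.9, 204, 155 and 186 CPM in replicates 1 to 8. The 3 groups did not overlap at any point for Ciita: all Myc lymphomas were below all normal samples, and those below all vector lymphomas. The log2 fold change in Myc against vector was -2.14 ± 0.24 (4.40-fold lower, adjusted p = 6.8e-07). Ciita (9.54 kb of exon sequence) and H2-Ob (5.38 kb) are also the longest of the 10 genes, and long relative to short transcripts were lower in each Myc lymphoma (-3.13 to -0.06) than in each normal sample (0.29 to 0.99) and than in 7 of the 8 vector lymphomas (-0.51 to 0.81). With Myc replicate 5 left out, the log2 fold change was -2.01 ± 0.20 for Ciita and -2.19 ± 0.20 for H2-Ob. The part of transcript length in these falls was not tested.

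Cd74, the chaperone of all class II molecules, was at 6608, 6622, 8246 and 8027 CPM in normal samples. Vector lymphomas had 9500 to 15180 CPM (median 10300). Myc lymphomas had 1614 to 10520 CPM (median 4288). Of the 8 Myc lymphomas 7 lay below every vector lymphoma, and replicate 5 at 10520 CPM lay among them. The log2 fold change in Myc against vector was -1.34 ± 0.31 (adjusted p = 0.0016), and -1.64 ± 0.26 without that replicate.

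The classical chains, which carry the peptide to the cell surface, all fell. H2-Aa, the alpha chain of I-A, ran from 2552 to 3513 CPM in normal samples, from 2793 to 5703 (median 4120) in vector lymphomas and from 757 to 4759 (median 1707) in Myc lymphomas. Its log2 fold change in Myc against vector was -1.08 ± 0.31 (adjusted p = 0.0072). H2-Ab1, its beta chain partner, ran from 2277 to 2898 CPM in normal, from 3236 to 4774 (median 3655) in vector and from 541 to 2800 (median 1308) in Myc samples. Here no Myc lymphoma reached the vector group, and the log2 fold change was -1.55 ± 0.26 (adjusted p = 9.4e-05). H2-Eb1, the beta chain of I-E, had 1667 to 1978 CPM in normal samples, 2535 to 4230 (median 2946) in vector lymphomas and 439 to 2912 (median 986) in Myc lymphomas. Its log2 fold change was -1.50 ± 0.30 (adjusted p = 0.0004), with 7 of 8 Myc lymphomas below every vector lymphoma. The C57BL/6 strain lacks the matching I-E alpha chain, and H2-Ea was near 0, with a highest level of 0.516 CPM.

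The peptide editor H2-DM moved less evenly. H2-DMa, its alpha chain, ran from 218 to 281 CPM in normal samples, from 307 to 525 (median 395) in vector lymphomas and from 78.2 to 690 (median 186) in Myc lymphomas. Its log2 fold change in Myc against vector was -0.80 ± 0.32 (adjusted p = 0.041), a call that was lost when any of 10 single samples was left out and that stood at -1.27 ± 0.21 without Myc replicate 5, its highest sample. H2-DMb1, one of the 2 beta chain genes, had 108 to 126 CPM in normal, 142 to 192 (median 177) in vector and 32.4 to 166 (median 68.9) in Myc samples, a log2 fold change of -1.13 ± 0.24 (adjusted p = 0.00066). H2-DMb2, the more abundant beta chain gene, had 340 to 405 CPM in normal, 425 to 688 (median 476) in vector and 73.7 to 406 (median 184) in Myc samples, a log2 fold change of -1.46 ± 0.26 (adjusted p = 0.00016). For H2-DMb2 the lymphoma groups did not overlap, and for H2-DMb1 1 Myc lymphoma lay within the vector range.

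The chains of H2-DO, which restrains H2-DM in B cells, parted. H2-Ob was at 835, 640, 858 and 711 CPM in normal samples. Vector lymphomas had 774 to 1277 CPM (median 1035), and Myc lymphomas 122, 182, 136, 257, 350, 299, 257 and 262 CPM in replicates 1 to 8. Thus every Myc lymphoma was below every sample of the other groups, and the log2 fold change of H2-Ob in Myc against vector was -2.09 ± 0.21 (4.26-fold lower, adjusted p = 2.3e-07). H2-Oa, the alpha chain, was at 146 to 225 CPM in normal samples, 141 to 347 (median 205) in vector lymphomas and 58.1 to 459 (median 111) in Myc lymphomas. Its log2 fold change of -0.57 ± 0.34 did not pass the test (adjusted p = 0.17). Without Myc replicate 5, the sample at 459 CPM, H2-Oa stood at -1.11 ± 0.22 (adjusted p = 0.00041).

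**Figure D2:**
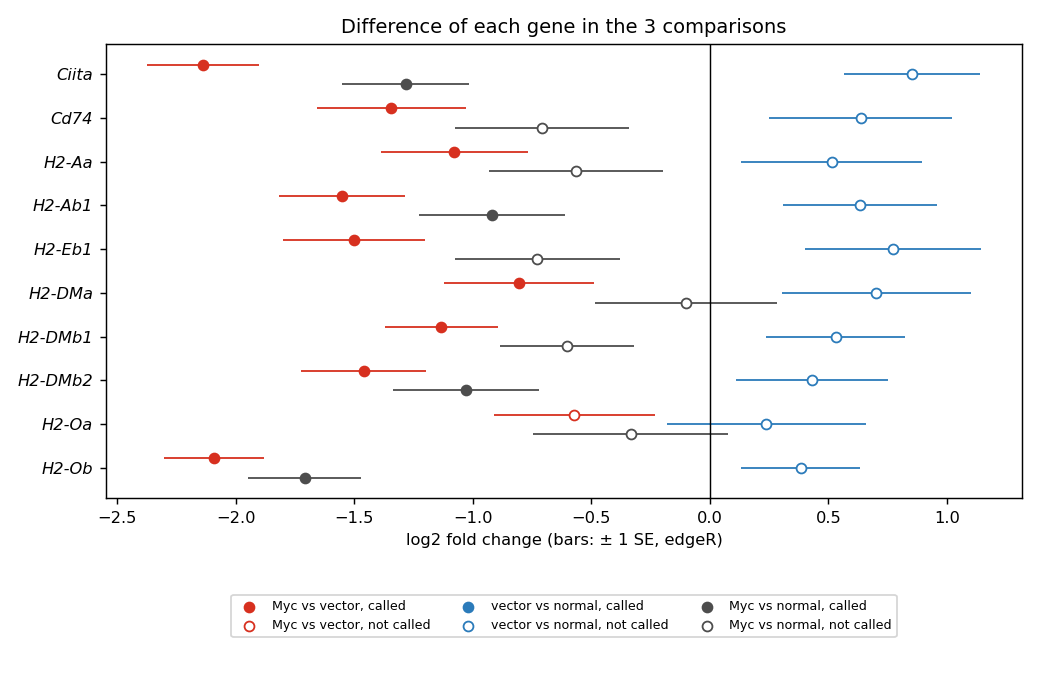
Log2 fold change (horizontal axis, bars ± 1 SE) of the 10 genes in Myc against vector (red), vector against normal (blue) and Myc against normal (grey), with filled points at an adjusted p under 0.05. Myc against vector runs from -2.14 (Ciita) to -0.57 (H2-Oa), vector against normal from 0.24 to 0.85 with all points open, and Myc against normal from -1.71 (H2-Ob) to -0.10 (H2-DMa).

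Within the earlier runs, where 8 Myc lymphomas stand against 2 vector lymphomas, 4 of the 10 genes fell in Myc against vector (Ciita, H2-Ab1, H2-DMb2 and H2-Ob), against 4.4% of all genes. The median of the 10 genes was then -1.43, close to the value over all runs. Ciita stood at -1.68 ± 0.38 (adjusted p = 0.016) and H2-Ob at -2.13 ± 0.33 (adjusted p = 0.0016) there. With run as a term in the fit, 8 of the 10 genes fell, against 9.77% of all genes, and H2-DMa (-0.97 ± 0.44, adjusted p = 0.13) and H2-Oa (-0.95 ± 0.45, adjusted p = 0.15) did not pass.

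In vector lymphomas against normal spleen none of the 10 genes passed the test, although all 10 had a higher fitted level. Of all genes tested 7.46% rose here. The log2 fold changes ran from 0.24 (H2-Oa) to 0.85 ± 0.29 (Ciita, adjusted p = 0.06, which passed without vector replicate 7 or Myc replicate 3 or 4), with a median of 0.58 against -0.03 over all genes. By edgeR, 2 of the 10 genes, Ciita and H2-Eb1, had an unadjusted p under 0.05, as had 4342 of the 17824 genes tested, in either direction. Yet 7 of the 10 genes (Ciita, Cd74, H2-Ab1, H2-Eb1, H2-DMa, H2-DMb1 and H2-DMb2) had every vector lymphoma above every normal sample, which held for 7.33% of all genes. Which genes passed depended on the samples in the fit. Fitted on the 12 samples of these groups alone, Ciita, H2-Ab1, H2-Eb1, H2-DMa, H2-DMb1 and H2-DMb2 rose, 6 of the 10 against 12.6% of all genes, with adjusted p from 0.0042 (Ciita, 0.87 ± 0.18) to 0.049 (H2-DMb2, 0.44 ± 0.15). Without Myc replicate 5 the fit over all groups called Ciita (0.88 ± 0.23, adjusted p = 0.013) and H2-Eb1 (0.80 ± 0.26, adjusted p = 0.036), 2 of 10 against 10.8% of all genes. In the earlier runs alone, with 2 vector against 3 normal samples, none passed (0.621% of all genes rose), and the fitted differences ran from 0.47 to 0.81, all upward.

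In Myc lymphomas against normal spleen 4 of the 10 genes fell, against 17.9% of all genes. These were Ciita (-1.28 ± 0.27, adjusted p = 0.00099), H2-Ab1 (-0.92 ± 0.31, adjusted p = 0.023), H2-DMb2 (-1.03 ± 0.31, adjusted p = 0.012) and H2-Ob (-1.71 ± 0.24, adjusted p = 2.4e-05). The call of H2-Ab1 was lost without normal replicate 1, 3 or 4. Only Ciita and H2-Ob of the 10 had every Myc lymphoma below every normal sample, against 14.3% of all genes. H2-DMa differed least, at -0.10 ± 0.38. The median of the 10 genes was -0.72 against 0.08 over all genes. Without Myc replicate 5, 9 of the 10 genes fell (19.6% of all genes) and only H2-DMa did not pass, at -0.54 ± 0.25 (adjusted p = 0.085). In the earlier runs 2 of the 10 fell, Ciita (-1.21 ± 0.34, adjusted p = 0.025) and H2-Ob (-1.64 ± 0.30, adjusted p = 0.0026), against 7.97% of all genes. The 3 comparisons share samples pairwise, so their values are not independent of each other.

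The partners of one molecule did not always move together, as ratios within a sample show. Such ratios do not depend on how libraries are scaled, and they show unequal change and not which partner moved. The ratio of H2-Oa to H2-Ob differed most. These genes have 1.41 and 5.38 kb of exon sequence, the shortest of the 10 and the longest after Ciita, and the part of the lower level of long transcripts in Myc lymphomas in this ratio was not tested. Its log2 ratio of CPM was -2.52, -1.94, -1.93 and -1.94 in normal samples, -2.77 to -1.77 in vector lymphomas and -1.43 to 0.39 in Myc lymphomas. Every Myc lymphoma lay above all samples of the other groups. The mean difference between Myc and vector was 1.29 (exact two-sided permutation test of 8 against 8 samples, p = 0.00016, the smallest that this test can give; adjusted p = 0.0033 over 21 tests) and between Myc and normal 1.13 (exact permutation test, adjusted p = 0.0085). The latter was 0.98 and did not pass without normal replicate 1 (exact permutation, adjusted p = 0.092). Samples of the later runs (normal replicate 1 and vector replicates 1 to 6) held the 7 lowest ratios, -2.77 to -2.15, and the vector and normal samples of the earlier runs lay between -1.94 and -1.77. Within the earlier runs the difference was 0.87 between Myc and vector (8 against 2, exact permutation p = 0.13, adjusted p = 0.30), with no overlap. Without Myc replicate 5 it was 1.10 over all runs (exact permutation, adjusted p = 0.0033).

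A pair of other ratios also differed between Myc and vector lymphomas. H2-DMb2 to H2-Ob, an editor chain against a chain of its inhibitor, had a mean log2 ratio of -0.45 ± 0.32 (SD, n = 8) in Myc and -0.97 ± 0.21 (SD, n = 8) in vector lymphomas, a difference of 0.52 (exact permutation, adjusted p = 0.0044). Myc replicate 5 had the highest of these ratios, 0.21, with the next at -0.32. H2-DMb2 has 1.75 kb of exon sequence and H2-Ob 5.38 kb, and the part of transcript length in this ratio was not tested either. H2-Aa to H2-Ab1, the chains of I-A, had 0.48 ± 0.17 in Myc and 0.05 ± 0.24 in vector lymphomas, a difference of 0.43 (exact permutation, adjusted p = 0.0033). The other 4 ratios did not pass in that comparison: Cd74 to H2-Ab1 differed by 0.16 (exact permutation, adjusted p = 0.082), H2-DMb1 to H2-DMb2 by 0.34 (adjusted p = 0.083, same test), H2-DMa to H2-Oa by -0.23 (adjusted p = 0.13, same test) and H2-Eb1 to H2-Ab1 by less than 0.01, with -0.48 to 0.06 in Myc and -0.63 to 0.11 in vector lymphomas. Of these, H2-DMb1 to H2-DMb2 passed without vector replicate 2 or Myc replicate 2 or 4, and Cd74 to H2-Ab1 without Myc replicate 2. Between vector and normal samples 1 of the 7 ratios differed, H2-DMa to H2-Oa, by 0.48 (exact permutation, adjusted p = 0.0085, no overlap). Between Myc and normal samples 3 of the 7 differed, with H2-Oa to H2-Ob given above. H2-DMb2 to H2-Ob differed there by 0.56 (exact permutation, adjusted p = 0.030) and H2-Aa to H2-Ab1 by 0.29 (exact permutation, adjusted p = 0.028, no overlap). Each of these 2 calls was lost in 5 of the 12 tests that left out 1 sample. Within the earlier runs no ratio passed in any comparison. There the exact test of 2 vector against 3 normal samples cannot give p below 0.10, so no ratio could pass. Those of 8 Myc against 2 vector and 3 normal samples cannot give p below 0.022 and 0.0061 before adjustment.

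**Figure D3:**
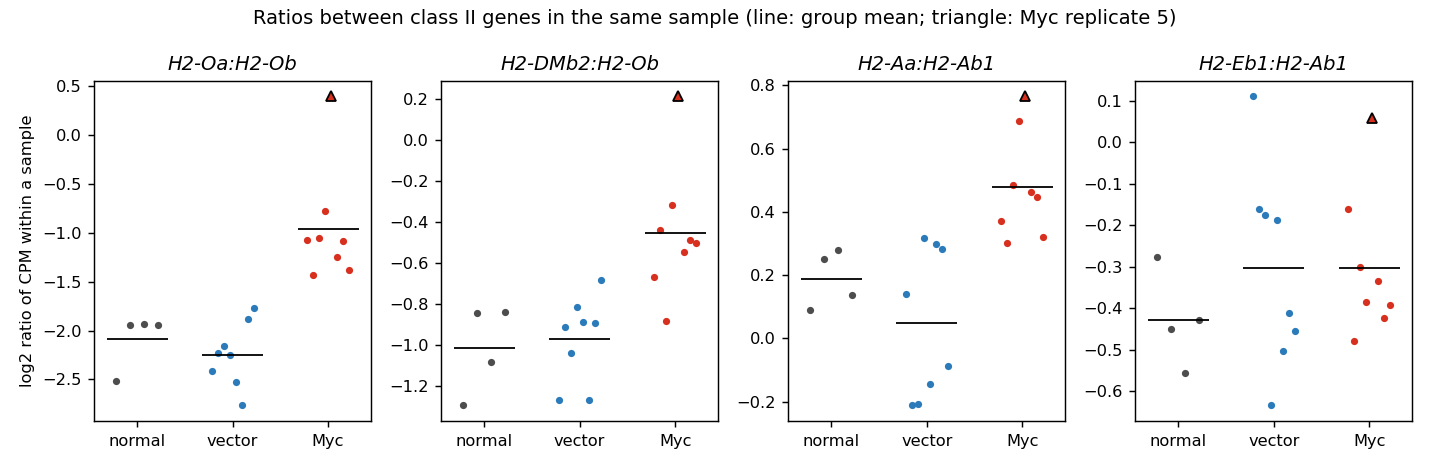
Log2 ratio of CPM of 2 class II genes in the same sample (vertical axes) for 4 gene pairs, with a point per sample, a line at the group mean and a triangle for Myc replicate 5. All 8 Myc lymphomas (red) lie above all normal (grey) and vector (blue) samples for H2-Oa:H2-Ob, whereas the groups overlap for H2-Eb1:H2-Ab1.

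Since B cell transcripts as a whole were lower in Myc lymphomas, each gene was also set against the geometric mean of Cd22, Blk, Fcrla, Vpreb3, Pax5 and Ptprc in the same sample. Measured against these B cell genes, 5 of the 10 genes were lower in Myc than in vector lymphomas and none was higher (exact two-sided permutation, adjusted over 30 tests). A difference in the B cell genes moves every gene measured against them, and the share of all genes that pass this way was not measured. Ciita was at 0.04 ± 0.72 (SD, n = 8) log2 above the B cell genes in Myc and at 1.07 ± 0.41 (SD, n = 8) in vector lymphomas, a difference of -1.03 (exact permutation, adjusted p = 0.0076), with values that overlapped. H2-Ob was lower by 0.95 (exact permutation, adjusted p = 0.0047), and each Myc lymphoma was below each vector lymphoma. H2-Ab1 was lower by 0.49 (adjusted p = 0.012), H2-Eb1 by 0.49 (adjusted p = 0.041) and H2-DMb2 by 0.43 (adjusted p = 0.032), all log2 and by exact permutation. The call of H2-Eb1 was lost in 12 of the 16 fits that left out 1 sample (exact permutation, adjusted p up to 0.072). It held without vector replicate 6 or 8 or Myc replicate 4 or 5. That of H2-DMb2 was lost in 5 of them, without vector replicate 4 or 7 or Myc replicate 1, 3 or 6, which left 3 calls of 10. Cd74 stood at 4.90 ± 0.46 (SD, n = 8) in Myc and 5.23 ± 0.16 (SD, n = 8) in vector lymphomas, a difference of -0.33 that did not pass (exact permutation, adjusted p = 0.13). It was -0.46 and passed without Myc replicate 5 (exact permutation, adjusted p = 0.0093). The choice of B cell genes mattered. Against Cd79a, Cd79b and Ms4a1, which were taken after seeing the data, 2 of the 10 passed, H2-Ob lower by 0.71 (exact permutation, adjusted p = 0.0076) and H2-Oa higher by 0.58 (exact permutation, adjusted p = 0.0087). Ciita then stood at -0.80 (exact permutation, adjusted p = 0.075), so that H2-Ob was the gene that passed as lower by both measures.

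Against the 6 B cell genes, 9 of the 10 class II genes were higher in vector lymphomas than in normal samples, by 0.35 (H2-Ob) to 0.82 (Ciita), and H2-Oa (0.19, exact permutation, adjusted p = 0.39) did not pass. The call of H2-Aa (0.47) was lost without normal replicate 1, 2 or 4 or vector replicate 1 or 7 (exact permutation, adjusted p up to 0.097), and that of H2-Ob without normal replicate 2 (0.31, exact permutation, adjusted p = 0.052). In Myc lymphomas H2-Ob was lower than in normal samples (-0.59, exact permutation, adjusted p = 0.0076) and H2-DMa was higher (0.78, exact permutation, adjusted p = 0.049), with no overlap between the groups for either gene. The other 8 genes, Ciita (-0.21) among them, did not pass. The call of H2-DMa was lost without any 1 of the 4 normal samples and without Myc replicate 1, 3, 4, 7 or 8, which left 1 call. With Cd79a, Cd79b and Ms4a1 in place of the 6 B cell genes 8 of the 10 passed between Myc and normal samples, all of them higher, and H2-Ob (-0.19) and Ciita (0.19) did not. The share of all genes that pass by either measure was not taken, so these counts have no background. Within the earlier runs none passed in any of the 3 comparisons. The exact tests of 8 against 2, 8 against 3 and 2 against 3 samples there cannot give p below 0.022, 0.0061 and 0.10. The differences of Ciita were also smaller there, -0.49 in Myc against vector and 0.31 in vector against normal samples. H2-Ob stood at -0.85 in Myc against vector.

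Within the Myc group the class II genes varied together, and Ciita varied with them in all lymphomas but replicate 5. Over the 45 pairs of the 10 genes, Spearman's rho of log2 CPM across the 8 Myc lymphomas ran from 0.14 to 1.00 (median 0.86), and none was negative. Across the 8 vector lymphomas it ran from -0.86 to 0.93 (median 0.48), with 9 pairs negative. These points share libraries and depth. Ciita against each of the 9 other genes gave Pearson's r between -0.28 and 0.20 and rho between 0.14 and 0.33 over the 8 Myc lymphomas, and none of the 9 passed (exact permutation, adjusted over 18 relations). Leaving out the 2 lymphomas farthest from the median of Ciita (replicates 3 and 5) gave r of 0.69 to 0.96 (n = 6). Leaving out replicate 5 alone, which was chosen after its values were seen, gave r of 0.84 to 0.98 (n = 7), with an adjusted p between 0.00089 and 0.017 for the 9 genes (exact permutation), and rho of 0.71 to 1.00, for which H2-DMb1 (adjusted p = 0.088) and H2-Ob (adjusted p = 0.075) did not pass by exact permutation. The relation over all 8 thus turned on 1 library. In that library Ciita was at 58.9 CPM, the lowest of all 20 samples, and the 9 other genes were the highest of the Myc group by TMM-scaled CPM. Without that scaling H2-Ob was not the highest, with 8128 of 34.4 M gene counts against 9183 of 33.6 M in Myc replicate 6. Ciita has 9.54 kb of exon sequence, longer than 88.1% of the genes ranked by length (median 4.62 kb), and the other class II genes 1.41 to 5.38 kb. The low level of long transcripts in that library was given above, and its part in the low Ciita value was not tested.

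**Figure D4:**
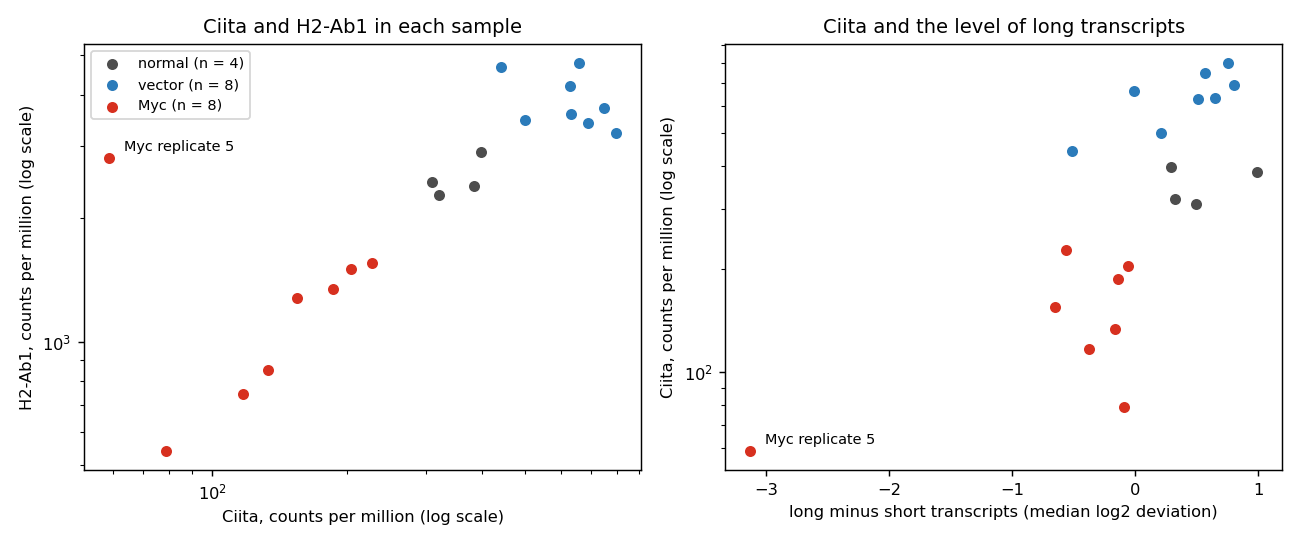
Left, H2-Ab1 against Ciita (CPM, log axes) in the normal (grey), vector (blue) and Myc (red) samples; right, Ciita against the median log2 level of long relative to short transcripts. Of the Myc lymphomas 7 lie along a rising line from 541 to 1553 CPM of H2-Ab1, and replicate 5 (2800 CPM) lies apart in both panels, at -3.13 on the right.

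Across the 8 vector lymphomas no relation of Ciita to the 9 other genes passed the test. Pearson's r ran from -0.77 (H2-DMb2) to 0.15 (H2-Eb1), with adjusted p of 0.33 or above (exact permutation). Without vector replicates 7 and 8, the farthest from the median, r ran from -0.76 to 0.27 (n = 6). These replicates had the lowest Ciita of the group (442 and 498 CPM) and were its only samples from the earlier runs. The genes whose order across samples was most like that of Ciita, by the mean of rho within vector and within Myc lymphomas among 10682 genes, were Zfp608 (0.95), Snx29 (0.94), Extl3 (0.91), AU040320 (0.89) and Ffar1 (0.87). The best of the class II genes, H2-Eb1, was at 0.29 and ranked 3139. Leaving out Myc replicate 5, chosen after its values were seen, H2-Eb1 was at 0.61 and ranked 326, Zfp608 (0.94) and Snx29 (0.91) still led, and Extl3, AU040320 and Ffar1 (0.84 to 0.86) ranked 7, 11 and 14. Of the 5 genes first named 4 have exons of 6.06 to 8.51 kb, longer than the median.

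The factors that place Ciita on class II promoters fell in part. Of 7 genes of this complex 3 fell in Myc against vector lymphomas (21.9% of all genes), none rose (26.6% of all genes) and the median was -0.44. They were Rfxank (-1.18 ± 0.13, adjusted p = 6.6e-07) and Rfx5 (-1.28 ± 0.21, adjusted p = 5.3e-05), subunits of RFX, and Nfya (-0.77 ± 0.15, adjusted p = 0.00047), a subunit of NF-Y. Rfx5 was at 87.8 to 110 CPM in normal samples, 95.3 to 124 in vector lymphomas and 12.6 to 63.4 in Myc lymphomas, without overlap between the lymphoma groups. The third RFX subunit, Rfxap, stood at 0.23 ± 0.16 (adjusted p = 0.23). Of the 7, 1 fell in the earlier runs, against 4.4% of all genes.

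Of 11 transcription factors known to act on the Ciita gene 9 fell in Myc against vector lymphomas (21.9% of all genes) and none rose (26.6%), with a median of -1.23. Named by the smallest p-values, they included Bcl6, the germinal centre repressor (-2.27 ± 0.26, adjusted p = 1.2e-06), Irf1, a mediator of interferon responses (-1.44 ± 0.18, adjusted p = 2.1e-06), and the B lineage factors Ebf1 (-1.61 ± 0.21, adjusted p = 5.5e-06) and Pax5 (-1.81 ± 0.25, adjusted p = 9e-06). The list holds activators and repressors of Ciita alike. Spi1, which encodes PU.1, stood at 0.05 ± 0.25, and Prdm1, a repressor of Ciita in plasma cells, at -0.58 ± 0.37 (adjusted p = 0.20). In vector against normal samples 2 of the 11 rose (7.46% of all genes). In the earlier runs 3 of the 11 fell in Myc against vector (4.4% of all genes).

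Of 8 chromatin cofactors 3 fell and 1 rose in Myc against vector lymphomas, where 21.9% of all genes fell and 26.6% rose. Crebbp, a histone acetyltransferase (-1.35 ± 0.30, adjusted p = 0.0011), fell, as did Ep300 and Kat2b, and the arginine methyltransferase Carm1 rose (0.89 ± 0.12, adjusted p = 5.7e-06). Of the 8, none fell and 1 rose in the earlier runs, where 4.4% of all genes fell and 549 of 18505 rose. The sizes were also smaller there, with a lowest log2 fold change of -0.33 and a median of 0.13. With run as a term none of the 8 fell, and the lowest was -0.47. Of 11 genes of antigen processing for class II, 2 rose (26.6% of all genes) and 1 fell (21.9% of all genes), with a median of 0.16. Ctsl, a lysosomal protease, rose (log2 fold change 1.98 ± 0.32, adjusted p = 5.2e-05), as did the tetraspanin Cd63 (1.11 ± 0.33, adjusted p = 0.0085). The tetraspanin Cd82 fell (-0.30 ± 0.12, adjusted p = 0.043). Ctss, the protease that trims the invariant chain in B cells, stood at -0.46 ± 0.19 (adjusted p = 0.055). None of these 11 genes passed by edgeR in the earlier runs. Of 5 genes of class II turnover and traffic 2 fell, against 21.9% of all genes: March1, the ubiquitin ligase that removes class II from the surface (-2.01 ± 0.27, adjusted p = 6.3e-06), and Cd83, which opposes it (-1.10 ± 0.23, adjusted p = 0.00064).

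H2-Eb2, outside the 10 genes, also fell in Myc against vector lymphomas. It was at 85.1 to 130 CPM in normal samples, 146 to 251 in vector lymphomas and 25.9 to 49.5 in Myc lymphomas, so that no 2 groups overlapped. Its log2 fold change was -2.33 ± 0.16 in Myc against vector (adjusted p = 4e-09) and 0.97 ± 0.20 in vector against normal (adjusted p = 0.0033). Of 19 tested genes that lie among or beside the class II genes on chromosome 17, 9 fell and 3 rose in Myc against vector, with a median of -0.43. Over all genes 21.9% fell and 26.6% rose. Btnl2, a butyrophilin-like gene beside the H2-E genes, fell by 3.16 ± 0.20 (adjusted p = 1.1e-09), from 25.01 to 46.6 CPM in vector to 2.50 to 6.45 CPM in Myc lymphomas. The chromatin reader Brd2 (-1.40 ± 0.19, adjusted p = 6e-06) and the peptide transporter Tap2 (-1.14 ± 0.17, adjusted p = 2.6e-05) fell too, and the ribosomal protein gene Rps18 rose by 2.07 ± 0.42 (adjusted p = 0.00048). Of the 19, 2 fell and 1 rose in the earlier runs, where 4.4% of all genes fell and 549 of 18505 rose. Without Myc replicate 5 the counts of falling and rising genes were 3 and 0 of 7 for the promoter complex, 9 and 0 of 11 for the factors on Ciita, 3 and 1 of 8 for the cofactors, 3 and 2 of 11 for processing, 2 and 0 of 5 for turnover and 11 and 3 of 19 for the neighbours. Over all genes 23.3% fell and 4525 of 17707 rose in that fit.

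**Figure D5:**
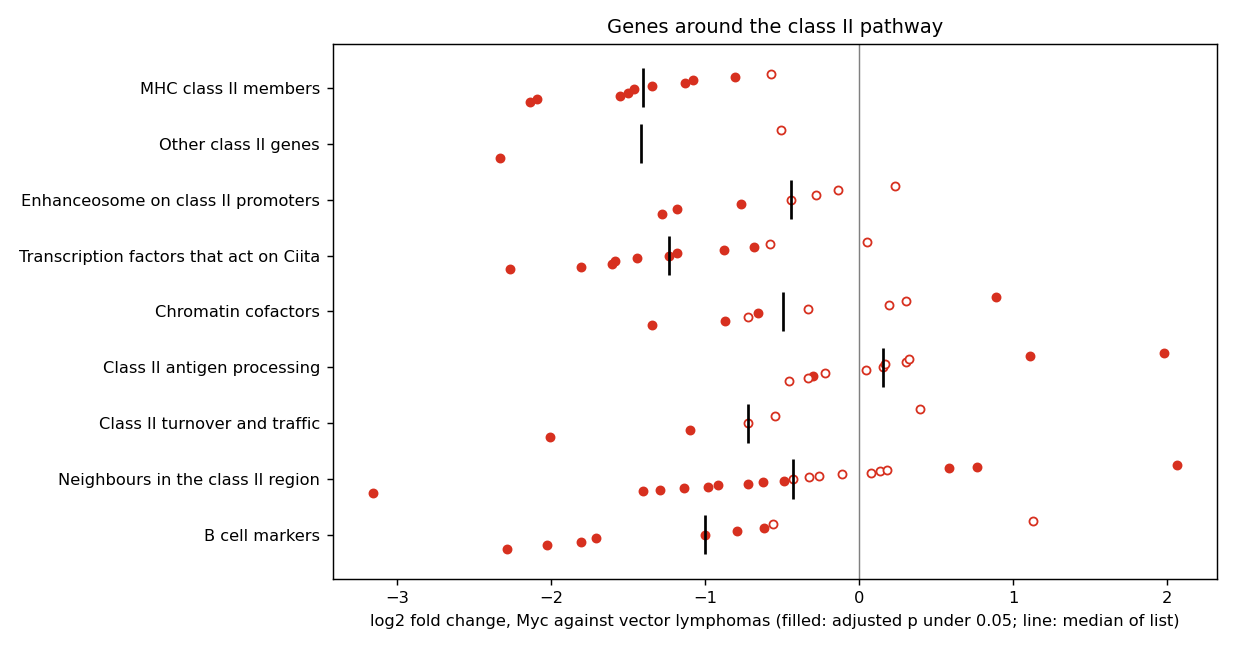
Log2 fold change in Myc against vector lymphomas (horizontal axis) of each gene in 8 lists around class II expression and in the B cell marker list, filled at an adjusted p under 0.05, with a line at each list's median. The 10 class II genes (top row, median -1.40) and the B cell markers (bottom row, median -0.998) lie mostly below 0, and the antigen processing genes centre on 0.16.

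Other cell types that carry class II genes were also measured. Beside the counts given here, 21.9% of all genes fell and 26.6% rose in Myc against vector, and 7.46% rose in vector against normal. In the earlier runs 4.4% fell and 549 of 18505 rose in Myc against vector, and 0.621% rose in vector against normal. Of 10 conventional dendritic cell markers 6 fell and 1 rose in Myc against vector lymphomas, with summed levels of 441 to 1066 CPM in normal, 225 to 514 in vector and 140 to 412 in Myc samples. Of 8 plasmacytoid dendritic cell markers 6 rose and 1 fell (327 to 388, 247 to 335 and 281 to 1519 CPM), and of 10 macrophage and monocyte markers 2 rose and 1 fell (446 to 984, 412 to 914 and 653 to 2157 CPM). Plasma cells, which shut Ciita off, had 6 markers, of which 4 fell in Myc against vector and 5 rose in vector against normal (550 to 837, 4542 to 8015 and 724 to 3809 CPM). Of 7 T cell markers 2 rose and 1 fell, and of 5 NK cell markers 4 rose, in Myc against vector. In the earlier runs alone 3 conventional dendritic markers fell, 3 plasmacytoid dendritic, 1 macrophage and 2 NK cell markers rose, and no T cell marker passed in Myc against vector. No plasma cell marker passed there in Myc against vector (median log2 fold change -0.90) or in vector against normal (median 2.18). None of the lists was at 0 in any group, and their part in the class II levels was not tested.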

How the data were processed

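The authors deposited raw counts per Ensembl gene for 20 libraries of polyA RNA, read on the Ion Proton with 200-base chemistry per the labels' protocols. The tools HTSeq, BWA 0.7.5a and Picard 1.119, with builds NCBIM37 and mm9, come from the submitters' processing notes, without role or order. None of the sources used here says whether counting used strand, so reads of overlapping genes cannot be told apart. The 5 lines that name no gene hold 43.0 to 62.9% of all reads and stayed out of library sizes and tests. Symbols and exon lengths came from GENCODE vM21 (GRCm38), another build than the authors', so levels per kilobase are approximate; 32897 of 37620 identifiers matched a symbol, and Psmb9 of the neighbour list was not found.

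Counts were filtered with filterByExpr by group (17824 genes kept), scaled by TMM and tested in 1 fit of 3 groups with edgeR 4.0.16, two-sided, called at a Benjamini-Hochberg adjusted p under 0.05. Log2 CPM for ratios and correlations used a prior count of 2. The fit was first checked on simulated data with known changes. Alternatives were RLE size factors, DESeq2 1.42.0, limma 3.58.1 voom, no filter, libraries without 147 immunoglobulin, mitochondrial and haemoglobin genes, fits of 2 groups, a run term, the earlier runs alone, a prior count of 0.5, other B cell genes, a block by title number and single samples left out. One B cell gene is not reported here, so levels relative to B cell genes were taken against the 6 genes planned as the alternative, and 3 others were added after seeing the data.

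The 10 genes, 7 pathway lists and 7 marker lists were chosen with earlier results of these data known. From each pathway list the 2 to 4 genes with the smallest p in Myc against vector lymphomas are named; Rfxap, Spi1, Prdm1 and Rps18 were named after their values were seen. Genes most like Ciita needed a mean of at least 5 CPM.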

Additional observations from a re-analysis of the deposited data

Results flagged for a closer look

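In 30 sets of values (10 genes in 3 groups) and 21 sets of ratios, the end sample was compared with its nearest neighbour relative to the whole range, and 8 and 2 sets held a sample that stood off at the 95% level of Dixon's test. Chance gives about 1 in 20 for independent sets. That rate cannot be set against these counts, since genes that vary together in the same libraries gave the flagged sets. Of these, 7 genes had Myc replicate 5 far above the other Myc lymphomas in CPM scaled by TMM: Cd74 at 10520 CPM (next 5559), H2-Aa at 4759 (next 2501), H2-Ab1 at 2800 (next 1553), H2-Eb1 at 2912 (next 1194), H2-DMa at 690.2 (next 284.8), H2-DMb2 at 405.5 (next 206.4) and H2-Oa at 459.0 (next 149.8). The TMM factor of 0.675 widens these gaps. As a share of gene counts Cd74 held 0.710% in replicate 5 and 0.546% in Myc replicate 4. Whether the flags hold without that scaling was not tested. The same library had the lowest level of long relative to short transcripts, -3.13 on the log2 scale against -0.66 for the next Myc lymphoma, and the highest log2 ratio of H2-Oa to H2-Ob in its group, 0.39 against -0.78. By CPM scaled with TMM, its class II levels lay in or above the range of normal spleen for these 7 genes. As a share of gene counts, without that scaling, the 10 genes held 1.56% in that library and 1.68 to 2.09% in normal samples. Cd74 alone held 0.710% of gene counts in that library and 0.712 to 0.910% in normal samples.

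Normal replicate 3 had the highest H2-Aa of the normal samples, 3513 CPM with the next at 2707. Normal replicate 1 had the lowest log2 ratio of H2-Oa to H2-Ob of the normal samples, -2.52 with the next at -1.94, and it was the only normal sample from the later runs.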

How the results depend on the processing

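Replicate numbers here follow accession order and are names only. Titles end in numbers that recur across groups and also within the lymphoma groups, and no label says what they mark. Deviations from the group means did not follow them: 24 pairs of samples with the same title number in 2 groups had r from -0.34 to 0.29 (median -0.02), and 3 of 20 samples correlated best with their own number. With the title number as a replicate block, added after seeing the data, 9, 0 and 4 of the 10 genes were called in Myc against vector, vector against normal and Myc against normal, as without it; the permutation tests were not blocked. The number of class II genes called moved as follows. In the earlier runs alone it was 4 of 10 in Myc against vector and 2 in Myc against normal. In vector against normal it was 6 in a fit of the 2 groups and 1 with DESeq2, and in Myc against normal it was 7 with limma voom. Leaving out 1 sample gave 8 to 10 (Myc against vector), 0 to 2 (vector against normal) and 3 to 9 (Myc against normal). H2-DMa in Myc against normal then ran from -0.543 to 0.057. No filter, other size factors, libraries without 147 abundant genes and a prior count of 0.5 moved none of these counts by more than 1.5 times; other size factors ended the call of H2-DMa in Myc against vector (adjusted p = 0.053).

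Ratios called were 0 in each comparison in the earlier runs, where the samples are fewer and none could pass in vector against normal. They were 3 to 5, 1 to 1 and 0 to 5 with 1 sample left out. In the earlier runs these log2 ratios changed sign: H2-DMa:H2-Oa (0.06) and H2-Eb1:H2-Ab1 (0.13) in Myc against vector, and H2-DMb1:H2-DMb2 (-0.062) and H2-Oa:H2-Ob (0.115) in vector against normal. With 1 sample left out H2-Eb1:H2-Ab1 (Myc against vector) ran from -0.051 to 0.059, H2-DMb2:H2-Ob (vector against normal) from -0.047 to 0.104 and Cd74:H2-Ab1 (vector against normal) from -0.038 to 0.043. None of these signs was a call, and the cause was not tested.

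Relative to B cell genes, the earlier runs gave 0 calls in each comparison, with H2-DMb1 at 0.040 in Myc against vector. In those runs no gene could pass in vector against normal. Leaving out 1 sample gave 3 to 6 (Myc against vector), 7 to 9 (vector against normal) and 1 to 3 calls (Myc against normal). In Myc against vector H2-Aa then ran from -0.202 to 0.006 and H2-DMa from -0.074 to 0.191; in Myc against normal Ciita ran from -0.305 to 0.036 and H2-DMb2 from -0.140 to 0.066. With 3 other B cell genes, chosen after seeing the data, 2 were called in Myc against vector and 8 in Myc against normal, and the sign turned for H2-Aa (0.169) and H2-DMb1 (0.146) in Myc against vector and for Ciita (0.186) and H2-DMb2 (0.369) in Myc against normal; the cause was not tested. Correlation with Ciita across Myc lymphomas went from 0 to 9 calls without replicate 5, an alternative chosen after seeing the data, with r turning positive for H2-Aa (0.96), H2-Eb1 (0.97), H2-DMa (0.97), H2-DMb1 (0.85) and H2-Oa (0.84).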
